A study of Saccharomyces cerevisiae with 11 samples.

Results

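The large-subunit ribosome assembly factor genes are 53 budding yeast genes whose products build, check and export the precursor of the 60S ribosomal subunit. They were picked by a list of standard gene names, matched to the table of transcript levels by locus tag, and all 53 were found among the 7035 features used. Assembly of the 60S subunit starts in the nucleolus on the transcript of RNA polymerase I, where helicases, methyltransferases and RNA-binding scaffolds fold and trim the precursor of 25S and 5.8S rRNA. The particle then passes through the nucleoplasm, where GTPases and an AAA ATPase strip factors from it, and crosses the nuclear pore, and the last factors leave it in the cytoplasm. In yeast these genes belong to the ribosome biogenesis regulon, whose transcripts respond to nutrients and growth rate and whose promoters often carry a pair of short elements named PAC and RRPE.

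RNA was sequenced from 11 cultures of Saccharomyces cerevisiae of the W303 background and mating type a, whose labelled genotypes differed only in the plasmid they carried. All 4 groups had a chromosomal SCC2-AID*-6FLAG with a hygromycin marker, a degron-tagged form of the cohesin loader gene that is degraded in auxin, and OsTIR1 under the ADH1 promoter at ura3-1, beside the markers ade2-1, trp1-1 and can1-100 as well as his3-11,15 and a mutant leu2 allele. The pRS413 plasmid, kept in SD-HIS medium, held SCC2-7MYC with the substitution R787G (3 cultures), SCC2-7MYC with G1242V (3 cultures), no SCC2 (NULL, 2 cultures) or unmutated SCC2-7MYC (WT, 3 cultures). All cultures had 1 mM indoleacetic acid, the auxin, for 9 hours and were harvested at an OD600 of 0.4 to 0.8, and the labels do not say whether replicates came from separate transformants.

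The deposited values are TPM, a per-length share of the transcripts of a library that keeps no sequencing depth. They were multiplied by 1 factor per library, and these scaled TPM are the levels given below. In such bulk values a change in RNA per cell and a change in the make-up of the culture cannot be told apart. SCC2 itself had -2.21 ± 0.14 in NULL against WT on the log2 scale (adjusted p = 2.34e-06), 0.009 ± 0.13 in R787G (adjusted p = 0.951) and -0.30 ± 0.13 in G1242V (adjusted p = 0.0677). STE2, the pheromone receptor gene of a cells, stood between 122 and 230.4 scaled TPM in the 11 libraries, and STE3, that of alpha cells, between 2.79 and 7.00. The share of TPM in rRNA features was 9.19% in WT replicate 2 and 0.155% to 0.494% in the other libraries. Genes of chromosome I stood apart as a whole in some libraries, with medians from -0.55 in R787G replicate 3 to 0.47 in WT replicate 1 (log2, relative to the mean of WT), and chromosome IX genes had 0.43 in R787G replicate 3. None of the 53 genes lies on either chromosome, and on the 14 chromosomes that hold them these medians stayed between -0.096 and 0.17.

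The 53 genes were higher in R787G and in NULL than in WT, and most did not pass the test in G1242V. In R787G against WT, 50 of 53 were higher and none lower, with a median log2 fold change of 1.03 (lowest 0.11, highest 1.65), and 30 were at least 2-fold higher. In NULL against WT, 49 were higher and none lower, with a median of 0.80 (0.21 to 1.41) and 9 at least 2-fold. NULL has 2 libraries, and DBP3, JIP5, NOG2, NOP16, RRP8 and RRP14 lost this call when only NULL and WT were fitted. More calls, among them those of DBP2, HAS1 and NOG1, were lost when either NULL library was left out. In G1242V against WT, 2 were higher, 3 were lower and 48 did not pass, with a median of -0.04 (-0.77 to 0.65). The G1242V counts grew when single WT libraries were left out: 13 were lower without WT replicate 3 and 6 higher without WT replicate 1, where the median was 0.11. The calls of RRP1 and LOC1 (higher) and of REI1 and JIP5 (lower) held whichever library was left out, and that of RRP14 (lower) did not. A call here is a Benjamini-Hochberg adjusted p under 0.05 from limma over the 6432 features tested, on log2(scaled TPM + 1). Of all features tested, 36.5% were called higher and 29.3% lower in R787G, 36.8% higher and 25.2% lower in NULL, and 26.6% higher and 27.3% lower in G1242V. The medians over all features were 0.067 in R787G, 0.089 in NULL and 0.0021 in G1242V. These comparisons share the 3 WT libraries.

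Set against the WT mean, their median log2 difference was 1.04, 1.01 and 1.05 in the R787G libraries, 0.0068, 0.17 and -0.32 in G1242V replicates 1 to 3, 0.81 and 0.78 in NULL replicates 1 and 2, and 0.31, 0.033 and -0.34 in WT replicates 1 to 3. The R787G and NULL libraries lay close together within their groups, while the G1242V and WT libraries were spread wider and overlapped each other. The 53 genes together took 0.579% to 0.604% of the deposited TPM in R787G, 0.221% to 0.312% in G1242V, 0.544% and 0.557% in NULL, and 0.217% to 0.337% in WT. By mean scaled TPM, R787G was the highest group for 46 genes and NULL for 7, and G1242V was the lowest for 32 and WT for 21. Both orders move with the scaling: R787G was above NULL in the fit for 46 genes, but for 28 with an equal sum over coding genes, and G1242V was below WT for 29 genes, but for 37 with that sum. The order of G1242V and WT also turned by median when WT replicate 1 or G1242V replicate 3 was left out.

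**Figure D1:**
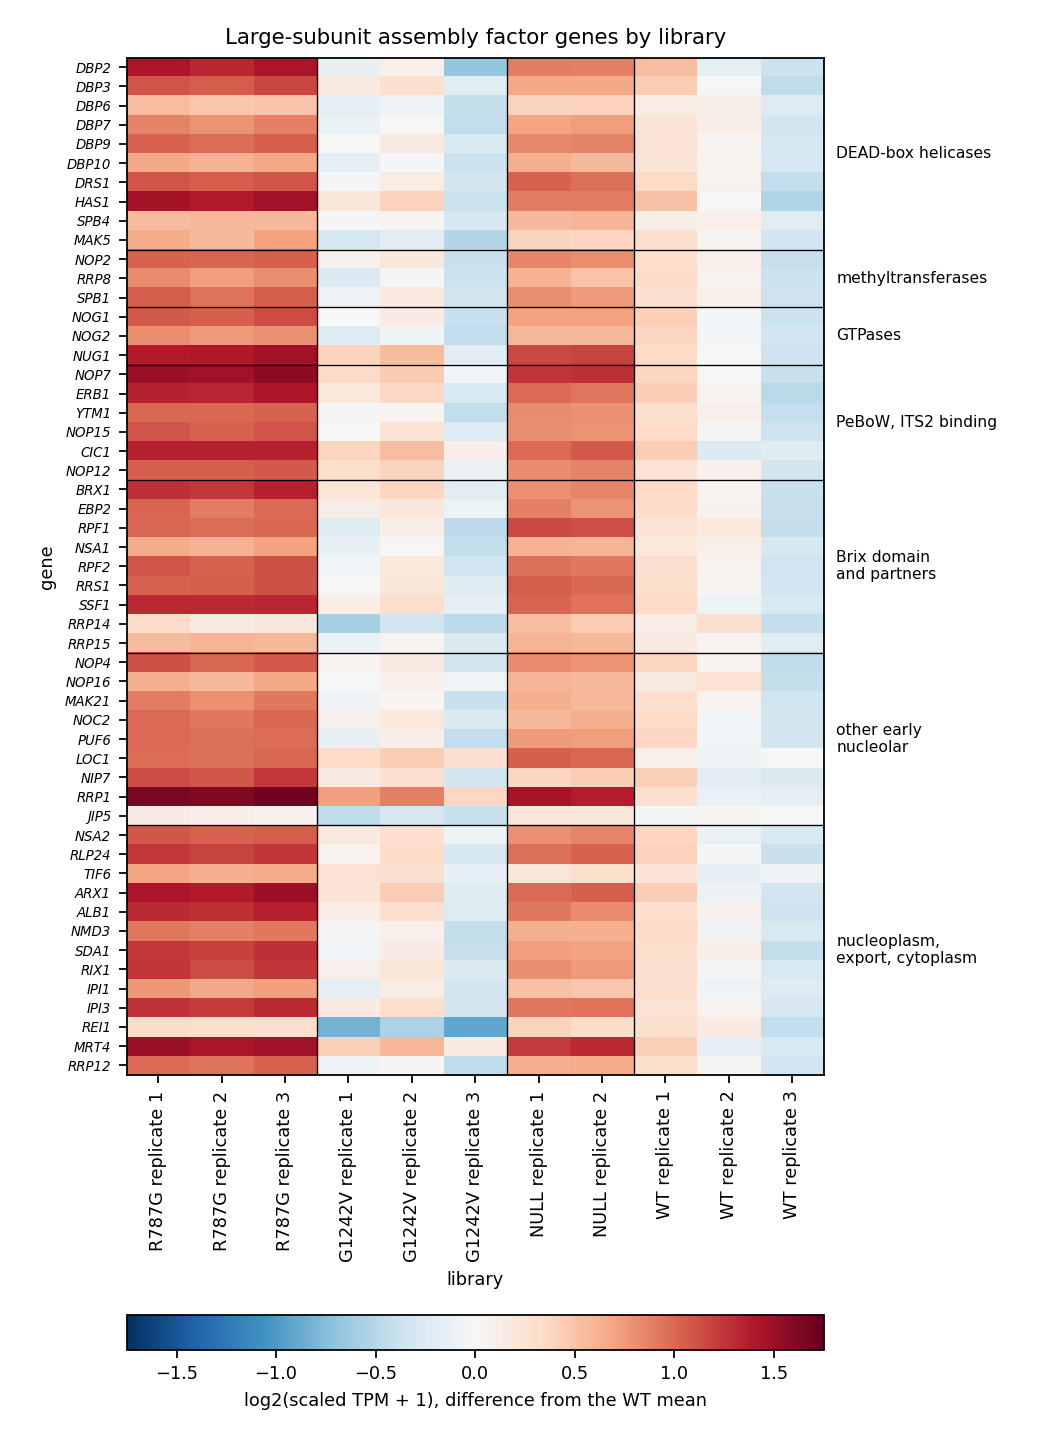
Log2(scaled TPM + 1) of each of the 53 genes (rows, grouped by role) in each of the 11 libraries (columns), as the difference from that gene's WT mean. Nearly every gene is red in the 3 R787G and 2 NULL libraries, G1242V replicate 3 and WT replicate 3 are mostly blue, and RRP14, JIP5 and REI1 are pale in R787G and blue in G1242V.

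The spread within groups was itself shared by the genes. The median coefficient of variation of the 53 genes was 2.84% in R787G, 16.8% in G1242V, 2.10% in NULL and 23.9% in WT. Over the 5221 features with at least 10 TPM in every library it was 3.47% in R787G, 7.21% in G1242V, 2.48% in NULL and 9.45% in WT. Of the 53 genes, 15 in R787G, 50 in G1242V, 21 in NULL and 51 in WT lay above that median of all features. WT replicate 1 was the highest WT library for 50 of the 53 genes and WT replicate 3 the lowest for 49. G1242V replicate 2 was the highest G1242V library for all 53 and G1242V replicate 3 the lowest for 51. Because 1 estimate of the spread per gene serves all comparisons, the spread in WT and G1242V also sets the error of comparisons that hold neither.

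**Figure D2:**
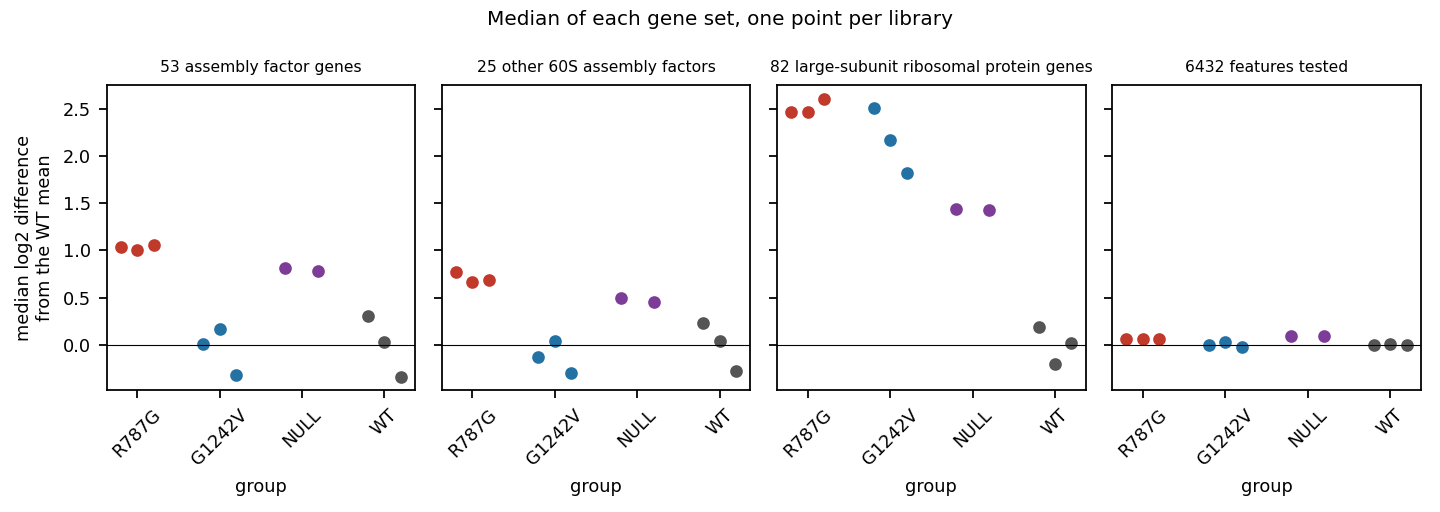
Median log2 difference from the WT mean (vertical axis) of 4 gene sets, with 1 point for each library, by group. The 53 assembly factor genes and the 25 other assembly factors are raised in R787G and NULL and overlap WT in G1242V. The 82 genes picked by symbol as large-subunit ribosomal protein genes are raised in all 3 groups, most in R787G and G1242V.

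RRP1, NOP7 and MRT4 had the largest fold changes against WT in R787G. RRP1 encodes a nucleolar protein that binds the particle with Nsa1, Rpf1 and Mak16. It had 75.3, 74.0 and 78.1 scaled TPM in R787G, 39.0, 44.0 and 30.4 in G1242V, 65.5 and 62.3 in NULL, and 28.7, 21.6 and 20.7 in WT. Every library of the 3 other groups lay above every WT library. The log2 fold change against WT was 1.65 ± 0.14 in R787G (adjusted p = 7.09e-06), 0.65 ± 0.14 in G1242V (adjusted p = 0.00317) and 1.41 ± 0.16 in NULL (adjusted p = 4.72e-05), so RRP1 was 1 of the 2 genes called higher in G1242V. NOP7, a scaffold of the PeBoW complex that acts on the precursor of 25S rRNA, had 234, 229 and 244 scaled TPM in R787G, 103, 112 and 78.6 in G1242V, 195 and 199 in NULL, and 106, 82.2 and 62.1 in WT. R787G and NULL lay wholly above WT, and G1242V overlapped it. MRT4, which holds the place of a ribosomal stalk protein on the particle, had 165, 156 and 162 scaled TPM in R787G, 77.1, 86.6 and 64.4 in G1242V, 136 and 143 in NULL, and 76.9, 51.9 and 47.8 in WT. Its fold change was 1.47 ± 0.16 in R787G (adjusted p = 3.54e-05) and 1.26 ± 0.18 in NULL (adjusted p = 2.23e-04), against 0.39 ± 0.16 in G1242V (adjusted p = 0.069).

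REI1, RRP14 and JIP5 had the smallest changes in R787G and were the 3 that did not pass there. REI1 encodes a cytoplasmic zinc finger protein that frees the export factor Arx1 from the subunit. It had 85.0, 84.7 and 83.8 scaled TPM in R787G, 37.8, 45.9 and 35.8 in G1242V, 89.1 and 85.5 in NULL, and 83.1, 75.6 and 50.2 in WT. R787G stood just above the highest WT library, and G1242V lay wholly below WT. The log2 fold change was 0.31 ± 0.16 in R787G (adjusted p = 0.118), -0.77 ± 0.16 in G1242V (adjusted p = 0.00273) and 0.35 ± 0.18 in NULL (adjusted p = 0.113). RRP14, a nucleolar partner of the Brix protein Ssf1, had 42.6, 37.7 and 38.9 scaled TPM in R787G, 22.1, 26.2 and 24.3 in G1242V, 49.2 and 46.0 in NULL, and 36.6, 41.5 and 25.0 in WT. Only NULL stood clear of the WT libraries, which R787G and G1242V overlapped. Its fold changes were 0.23 ± 0.15 (adjusted p = 0.207), -0.46 ± 0.15 (adjusted p = 0.0273) and 0.49 ± 0.17 (adjusted p = 0.0311) in R787G, G1242V and NULL. JIP5, a WD-repeat protein needed for 60S assembly, changed little, with 113, 111 and 107 scaled TPM in R787G, 74.8, 83.6 and 77.6 in G1242V, 119 and 118 in NULL, and 101, 105 and 102 in WT. All G1242V libraries lay below WT and all other mutant libraries above it, with 0.11 ± 0.055 in R787G (adjusted p = 0.107), -0.38 ± 0.055 in G1242V (adjusted p = 3.06e-04) and 0.21 ± 0.062 in NULL (adjusted p = 0.015), a call lost without either NULL library and when only NULL and WT were fitted. REI1, RRP14 and JIP5 were thus the 3 genes called lower in G1242V, although RRP14 lost that call when WT replicate 1 or 2, or G1242V replicate 1 or 3, was left out, and when only G1242V and WT were fitted. Without WT replicate 3 these 3 were joined by DBP6, DBP7, DBP10, MAK5, NOG2, NOP16, NSA1, RPF1, RRP8 and YTM1.

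The promoters of the 3 genes with the largest and the 3 with the smallest change in R787G are shown as the 300 bases before the start codon, 5′ to 3′ on the coding strand, from RefSeq R64, the assembly of sacCer3. Capitals mark every match to the PAC core GATGAG or the RRPE core AAAAATTT on either strand, so that CTCATC and AAATTTTT are matches on the other strand, and matches that overlap each other run together.
RRP1 (chrIV:618307-618606, minus strand): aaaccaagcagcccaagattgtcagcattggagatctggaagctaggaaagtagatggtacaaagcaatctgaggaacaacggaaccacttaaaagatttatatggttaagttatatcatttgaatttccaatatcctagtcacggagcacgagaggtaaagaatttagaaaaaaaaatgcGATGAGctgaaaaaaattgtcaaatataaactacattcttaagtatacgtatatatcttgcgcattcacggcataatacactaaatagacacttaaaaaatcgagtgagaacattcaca
NOP7 (chrVII:695117-695416, plus strand): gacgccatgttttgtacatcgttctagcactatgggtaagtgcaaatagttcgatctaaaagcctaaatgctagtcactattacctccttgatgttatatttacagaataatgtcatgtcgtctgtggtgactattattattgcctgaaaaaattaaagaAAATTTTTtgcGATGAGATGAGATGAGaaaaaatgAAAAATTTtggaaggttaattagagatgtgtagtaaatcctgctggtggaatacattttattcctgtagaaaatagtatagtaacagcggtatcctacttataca
MRT4 (chrXI:425942-426241, plus strand): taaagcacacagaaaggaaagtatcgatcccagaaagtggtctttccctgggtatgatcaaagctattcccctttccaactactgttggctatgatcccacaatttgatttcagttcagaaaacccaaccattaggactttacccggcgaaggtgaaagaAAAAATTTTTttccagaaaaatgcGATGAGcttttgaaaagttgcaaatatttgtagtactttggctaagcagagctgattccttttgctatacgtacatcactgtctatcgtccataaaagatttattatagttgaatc
REI1 (chrII:739541-739840, plus strand): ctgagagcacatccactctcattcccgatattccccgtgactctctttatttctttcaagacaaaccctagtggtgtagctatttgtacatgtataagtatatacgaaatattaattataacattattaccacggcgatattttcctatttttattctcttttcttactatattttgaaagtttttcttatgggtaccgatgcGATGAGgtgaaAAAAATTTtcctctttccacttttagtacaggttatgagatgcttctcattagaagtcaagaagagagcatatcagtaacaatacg
RRP14 (chrXI:282330-282629, minus strand): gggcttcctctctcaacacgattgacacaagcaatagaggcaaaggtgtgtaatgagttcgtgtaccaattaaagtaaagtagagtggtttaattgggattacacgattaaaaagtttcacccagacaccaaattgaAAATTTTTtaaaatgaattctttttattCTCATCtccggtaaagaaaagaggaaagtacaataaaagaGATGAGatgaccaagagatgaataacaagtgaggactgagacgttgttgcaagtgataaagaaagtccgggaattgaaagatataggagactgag
JIP5 (chrXVI:878390-878689, plus strand): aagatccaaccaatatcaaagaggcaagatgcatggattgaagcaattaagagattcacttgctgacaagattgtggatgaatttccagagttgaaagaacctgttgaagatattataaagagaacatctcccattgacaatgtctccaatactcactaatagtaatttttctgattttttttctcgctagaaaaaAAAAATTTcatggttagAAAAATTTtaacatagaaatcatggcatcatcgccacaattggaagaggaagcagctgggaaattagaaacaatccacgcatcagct

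Over all 53 promoters, 47 held the PAC core (88.7%), 46 the RRPE core (86.8%), 40 both (75.5%) and none neither. Among the 6007 promoters of protein-coding genes taken the same way, 19.1% held PAC, 15.1% RRPE, 5.59% both and 71.4% neither. PAC occurred 2 or more times in 26 of the 53 (49.1%), against 2.95% of all promoters. Overlapping matches were counted separately in both sets, so a single run of GATGAGATGAG counts as 2. Many of the 26 hold such a run, for example HAS1 with matches at 103 and 98 bases, so these counts are not numbers of separate sites. The 80 PAC matches had a median distance of 118 bases from the start codon and the 68 RRPE matches one of 142 bases. Of these, 72 and 63 lay between 50 and 200 bases. Over all protein-coding genes the shares were lower, and both cores were most frequent from 100 to 125 bases. There 2.68% of all promoters held PAC and 2.86% RRPE, against 37.7% and 20.75% of the 53. PAC of the 53 was most frequent in that bin too, but their RRPE was most frequent from 125 to 150 bases, at 39.6%, against 2.75% of all promoters. Both cores stood in either orientation, with 41 PAC matches on the coding strand and 39 on the other, and 33 and 35 RRPE matches. A run of AAAAATTTTT, as in MRT4, is a match on each strand and so adds to both RRPE counts. A match is a run of letters and not a measured binding site.

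**Figure D3:**
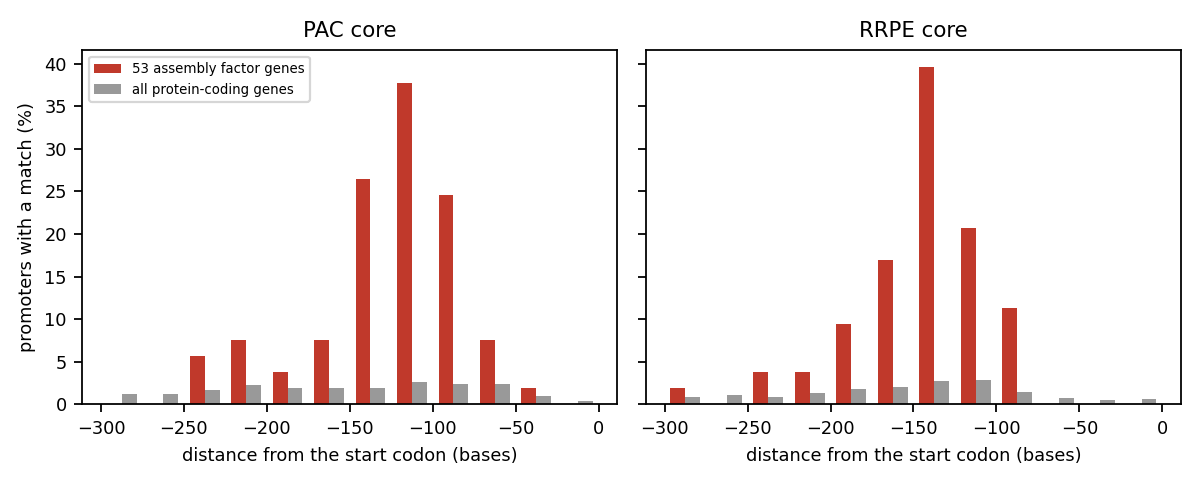
Share of promoters (vertical axis, %) with a PAC core (left) or an RRPE core (right) by distance from the start codon in bins of 25 bases, for the 53 assembly factor genes and for all protein-coding genes. PAC matches of the 53 genes peak near 118 bases and RRPE matches slightly farther out near 142. All genes have much lower shares, which are highest from 100 to 125 bases for both cores, at 2.68% for PAC and 2.86% for RRPE.

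The cores did not sort these 6 genes by the size of their change. RRP1, with the largest change, held 1 PAC core and no RRPE core, and NOP7 held 3 overlapping PAC cores between a pair of RRPE cores. REI1 and RRP14, among the smallest, held both elements, and JIP5 held 2 RRPE cores and no PAC core. By class, the 40 genes with both cores had a median log2 fold change in R787G against WT of 1.06 (0.23 to 1.52), the 7 with PAC alone 0.65 (0.51 to 1.65) and the 6 with RRPE alone 0.87 (0.11 to 1.26). In NULL against WT the medians were 0.83, 0.59 and 0.69, and in G1242V against WT they were -0.0009, -0.10 and -0.10. The classes overlapped over most of their range, and their difference was not tested.

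**Figure D4:**
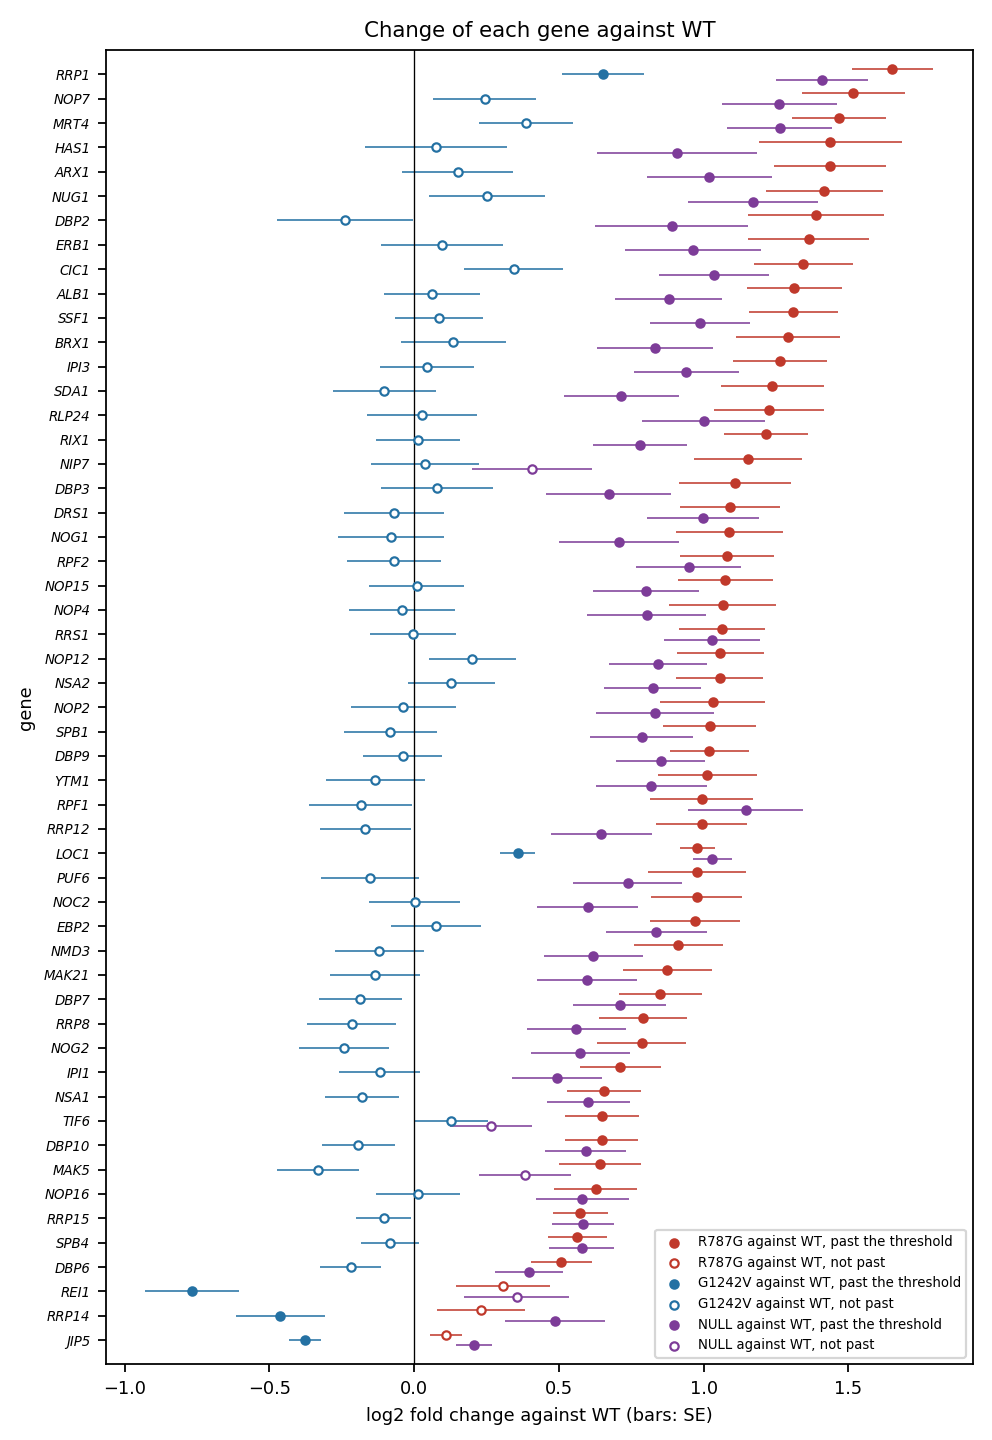
Log2 fold change against WT (horizontal axis, bars: SE) of the 53 genes, sorted by their change in R787G, with filled points for an adjusted p under 0.05 and open points otherwise. R787G lies right of NULL for most genes, and G1242V scatters around 0 with RRP1 and LOC1 called higher and REI1, RRP14 and JIP5 called lower.

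By role, the 10 DEAD-box helicases, which remodel pre-rRNA, were all called higher in R787G (median 0.94, 0.51 to 1.44). In NULL 9 of the 10 were called higher (median 0.69), and none passed in either direction in G1242V (median -0.13). DBP2 had 145, 136 and 146 scaled TPM in R787G, 49.0, 57.3 and 33.2 in G1242V, 101 and 99.9 in NULL, and 78.8, 47.7 and 41.1 in WT. It was raised by 1.39 ± 0.24 in R787G (adjusted p = 5.32e-04) and by 0.89 ± 0.26 in NULL (adjusted p = 0.0141) against WT. HAS1, a helicase that frees snoRNAs and serves both subunits, had 93.7, 89.5 and 94.7 scaled TPM in R787G, 38.8, 44.7 and 25.6 in G1242V, 63.6 and 64.2 in NULL, and 48.3, 33.8 and 23.1 in WT. For both genes R787G stood above NULL and NULL above every WT library. R787G against NULL was called for neither DBP2 (adjusted p = 0.155) nor HAS1 (adjusted p = 0.15), and 34.7% of all features lay above NULL in R787G without overlap. DBP3, the best expressed of the list by its mean over all 11 libraries, averaged 137 ± 5.11 scaled TPM in R787G, 67.2 ± 11.4 in G1242V, 101 ± 0.686 in NULL and 65.0 ± 20.0 in WT (SD, n = 3, and 2 in NULL). DBP9, which acts at an early step together with Dbp6, changed by 1.02 ± 0.14 in R787G and 0.85 ± 0.15 in NULL, DRS1 by 1.09 ± 0.17 and 1.00 ± 0.19, DBP7 by 0.85 ± 0.14 and 0.71 ± 0.16, and DBP10 by 0.65 ± 0.13 and 0.59 ± 0.14. DBP6 and SPB4, the last of them a helicase of a late nucleolar step, had the smallest changes in R787G at 0.51 ± 0.11 and 0.56 ± 0.10. MAK5 was the helicase not called in NULL, at 0.38 ± 0.16 (adjusted p = 0.0601). The calls of DBP2, DBP3, DBP6 and HAS1 in NULL were lost when either NULL library was left out.

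The 3 methyltransferases of 25S rRNA were called higher in both R787G and NULL, and none was called in G1242V. RRP8 lost its call in NULL when either NULL library was left out and when only NULL and WT were fitted. NOP2 had 151, 149 and 153 scaled TPM in R787G, 77.0, 84.4 and 55.9 in G1242V, 134 and 129 in NULL, and 91.0, 78.4 and 55.2 in WT, which gave 1.03 ± 0.18 in R787G (adjusted p = 6.67e-04) and 0.83 ± 0.20 in NULL (adjusted p = 0.00522). SPB1 averaged 86.3 ± 3.64 scaled TPM in R787G, 40.0 ± 6.97 in G1242V, 73.2 ± 2.51 in NULL and 42.8 ± 9.57 in WT, and RRP8 was the lowest of the 3 in every group. The 3 GTPases were likewise called higher in R787G and in NULL, with none called in G1242V. The calls of NOG1 and NOG2 in NULL were lost when either NULL library was left out, and that of NOG2 also when only NULL and WT were fitted. NOG1 averaged 202 ± 6.51 scaled TPM in R787G, 90.5 ± 16.6 in G1242V, 155 ± 0.553 in NULL and 97.1 ± 27.3 in WT. NOG2, whose intron holds the small nucleolar RNA gene SNR191, averaged 134 ± 3.15 in R787G, 65.3 ± 8.21 in G1242V, 115 ± 0.869 in NULL and 78.7 ± 19.9 in WT. NUG1 had the largest change of the 3, at 1.42 ± 0.20 in R787G (adjusted p = 1.72e-04) and 1.17 ± 0.22 in NULL (adjusted p = 0.00133), against 0.25 ± 0.20 in G1242V (adjusted p = 0.32).

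All 6 genes of the PeBoW complex and of proteins that bind the second internal transcribed spacer of pre-rRNA were called higher in R787G (median 1.21) and in NULL (median 0.90), and none in G1242V (median 0.15). ERB1, a partner of Nop7, had 75.8, 75.4 and 79.6 scaled TPM in R787G, 33.4, 38.0 and 24.3 in G1242V, 59.1 and 57.0 in NULL, and 40.0, 30.1 and 20.8 in WT. Here too R787G stood above NULL, and NULL above WT, without overlap, but R787G against NULL was not called (adjusted p = 0.198). YTM1, the other Nop7 partner, changed less, by 1.01 ± 0.17 in R787G and 0.82 ± 0.19 in NULL. CIC1 and NOP15 bind the spacer itself. CIC1 rose by 1.34 ± 0.17 in R787G and 1.04 ± 0.19 in NULL and had 0.34 ± 0.17 in G1242V (adjusted p = 0.115). NOP12, another RNA-binding protein, rose by 1.06 ± 0.15 in R787G and 0.84 ± 0.17 in NULL. NOP15, next to NOP7 the best expressed of the list, averaged 182 ± 4.70 scaled TPM in R787G, 87.0 ± 14.5 in G1242V, 150.0 ± 1.28 in NULL and 87.5 ± 21.3 in WT.

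Of the 9 Brix-domain proteins and their partners, 8 were called higher in R787G and all 9 in NULL. RRP14 was the exception in R787G and the only 1 called in G1242V, and its call in NULL was lost when either NULL library was left out and when only NULL and WT were fitted. BRX1, which works with Ebp2, had 148, 143 and 157 scaled TPM in R787G, 70.2, 78.4 and 53.2 in G1242V, 106 and 110.3 in NULL, and 77.0, 62.6 and 45.6 in WT. EBP2 averaged 138 ± 6.15 scaled TPM in R787G, 74.2 ± 7.72 in G1242V, 126 ± 6.50 in NULL and 71.7 ± 17.6 in WT. For this pair R787G and NULL stood above WT without overlap, and G1242V overlapped WT. NSA1 and RRP15 changed less, by 0.65 ± 0.13 and 0.57 ± 0.095 in R787G and by 0.60 ± 0.14 and 0.58 ± 0.11 in NULL. RRS1 and RPF2, which bring the 5S RNP into the particle, changed by 1.06 ± 0.15 and 1.08 ± 0.16 in R787G and by 1.03 ± 0.17 and 0.95 ± 0.18 in NULL. RPF1 was higher in NULL than in R787G, with 81.5, 80.3 and 81.8 scaled TPM in R787G, 34.6, 43.9 and 29.0 in G1242V, 91.0 and 89.6 in NULL, and 47.8, 45.8 and 29.8 in WT. Its difference between R787G and NULL was not called (adjusted p = 0.569). SSF1 rose by 1.31 ± 0.15 in R787G (adjusted p = 5.19e-05) and 0.99 ± 0.17 in NULL (adjusted p = 7.33e-04). SSF1 has a related copy, SSF2. Of the windows of 50 bases (the read length) in SSF1, 53 of 1313 (4.04%) recur elsewhere in the genome, and where they recur was not recorded. The other 52 genes have no such window. SSF2 changed by 0.46 ± 0.092 in R787G (adjusted p = 0.00144), -0.12 ± 0.092 in G1242V (adjusted p = 0.315) and 0.35 ± 0.10 in NULL (adjusted p = 0.014).

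**Figure D5:**
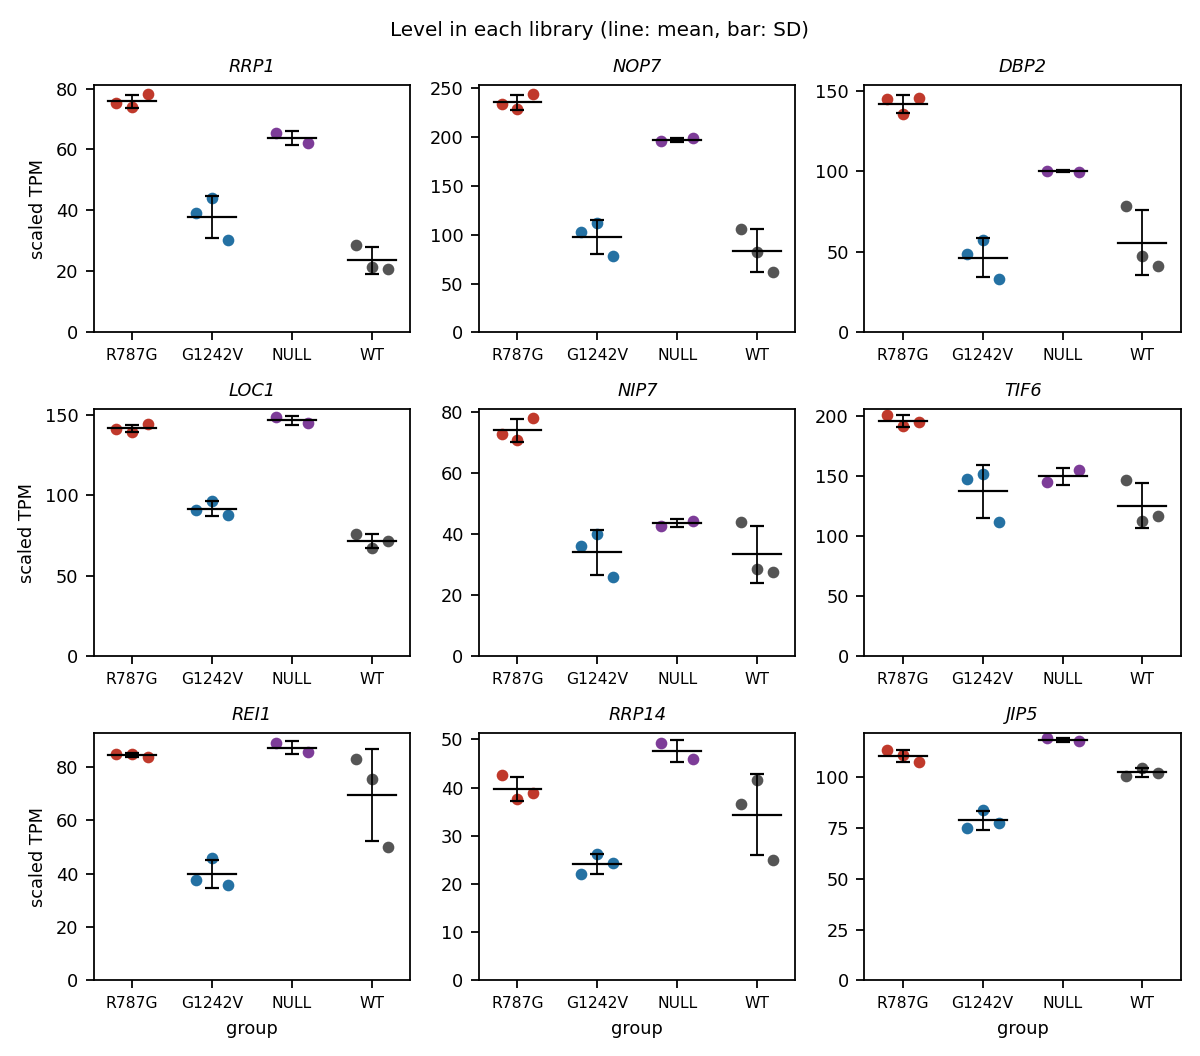
Scaled TPM of 9 genes in each library (points), with the group mean (line) and SD (bar), on axes that start at 0. RRP1 and LOC1 lie above WT in all 3 other groups, NIP7 and TIF6 stand above WT without overlap in R787G and overlap it in G1242V and NULL, and REI1, RRP14 and JIP5 are lowest in G1242V.

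Among the 9 other early nucleolar factors, 8 were called higher in R787G and 8 in NULL, while G1242V had RRP1 and LOC1 higher and JIP5 lower. LOC1, an RNA-binding protein that also anchors messenger RNAs for localization, had 141, 139 and 144 scaled TPM in R787G, 91.1, 96.5 and 87.6 in G1242V, 148 and 145 in NULL, and 75.7, 67.0 and 71.4 in WT. Every library outside WT lay above every WT library. NULL lay above R787G, but the difference of LOC1 between these groups was not called (adjusted p = 0.575). Its log2 fold change was 0.98 ± 0.061 in R787G (adjusted p = 1.21e-06), 0.36 ± 0.061 in G1242V (adjusted p = 7.16e-04) and 1.03 ± 0.068 in NULL (adjusted p = 2.90e-06), and its errors were below the median SE of the 53 genes, which was 0.16 in R787G and 0.18 in NULL against WT. NIP7 set R787G apart from NULL, with 72.9, 70.7 and 78.1 scaled TPM in R787G, 36.0, 40.2 and 26.0 in G1242V, 42.7 and 44.4 in NULL, and 44.0, 28.5 and 27.6 in WT. It was higher by 1.15 ± 0.19 in R787G against WT (adjusted p = 3.85e-04) and had 0.41 ± 0.21 in NULL (adjusted p = 0.113), where its libraries met WT replicate 1. NOC2 and MAK21, which form a complex, rose by 0.98 ± 0.16 and 0.87 ± 0.15 in R787G and by 0.60 ± 0.18 and 0.60 ± 0.17 in NULL. Both lost their call in NULL when either NULL library was left out. PUF6, a partner of Loc1, averaged 119 ± 1.43 scaled TPM in R787G, 54.4 ± 10.4 in G1242V, 101 ± 0.912 in NULL and 61.1 ± 15.2 in WT, and NOP16 changed by 0.63 ± 0.14 in R787G and 0.58 ± 0.16 in NULL. NOP4, an early RNA-binding factor, rose by 1.07 ± 0.18 in R787G and 0.80 ± 0.21 in NULL.

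The 13 factors of the nucleoplasm, of export and of the cytoplasm held 12 called higher in R787G and 11 in NULL, and REI1 was the 1 called in G1242V. RLP24, a stand-in for a ribosomal protein that is exchanged in the cytoplasm, had 212, 206 and 215 scaled TPM in R787G, 93.4, 112 and 72.8 in G1242V, 176 and 184 in NULL, and 119, 88.5 and 68.4 in WT. TIF6, which keeps the subunits from joining early, had the highest level of the 13 in WT and in G1242V, with 201, 192 and 195 scaled TPM in R787G, 148, 152 and 112 in G1242V, 145 and 155 in NULL, and 147, 113 and 117 in WT. Only the R787G libraries stood clear of WT, with 0.65 ± 0.13 in R787G (adjusted p = 0.00127) and 0.27 ± 0.14 in NULL (adjusted p = 0.128). The export factor ARX1 rose by 1.44 ± 0.19 in R787G (adjusted p = 1.24e-04) and 1.02 ± 0.22 in NULL (adjusted p = 0.00236), and its partner ALB1 by 1.31 ± 0.16 and 0.88 ± 0.18. REI1, whose product acts on Arx1 and Alb1, did not pass in either. NSA2, a factor of the nuclear particle, rose by 1.06 ± 0.15 in R787G and 0.82 ± 0.17 in NULL, and RRP12, which serves the export of both subunits, by 0.99 ± 0.16 and 0.65 ± 0.18. NMD3, the adaptor to the export receptor, averaged 142 ± 2.73 scaled TPM in R787G, 69.5 ± 12.1 in G1242V, 116 ± 0.282 in NULL and 76.0 ± 16.6 in WT. The Rix1 complex genes RIX1, IPI1 and IPI3, which lead the particle to the AAA ATPase Rea1, rose by 1.22 ± 0.15, 0.71 ± 0.14 and 1.26 ± 0.16 in R787G and by 0.78 ± 0.16, 0.49 ± 0.16 and 0.94 ± 0.18 in NULL. IPI1 lost its call in NULL when WT replicate 2 or 3 was left out. The calls of IPI1 and NMD3 in NULL were lost without either NULL library, and that of SDA1 without NULL replicate 1.

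R787G and G1242V differed at every one of the 53 genes. All 53 were called higher in R787G against G1242V, with a median log2 fold change of 1.07 (0.49 to 1.63) and 36 at least 2-fold higher, where 26.3% of all features were called higher and 19.9% lower with a median of 0.050. Every R787G library lay above every G1242V library for all 53, as for 35.2% of all features. DBP2 had the largest difference at 1.63 ± 0.24 (adjusted p = 7.88e-04) and stood at rank 4 from the highest of the 6432 features. HAS1 followed with 1.36 ± 0.25 (adjusted p = 0.002) and SDA1, a nucleoplasmic factor needed for export, with 1.34 ± 0.18 (adjusted p = 5.69e-04). The smallest differences were 0.49 ± 0.055 at JIP5 (adjusted p = 3.17e-04), 0.52 ± 0.13 at TIF6 (adjusted p = 0.00859) and 0.61 ± 0.14 at NOP16 (adjusted p = 0.00749). Ranked by this fold change, 25 of the 53 genes were among the top 100 features, and 51 among the highest 10%. With deposited TPM left unscaled, the all-feature median was 0.16 and 75.5% of all calls were higher, against 57%, and the 53 genes stayed above 0.

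Against NULL, G1242V was lower at 51 genes and higher at none. The median log2 fold change was -0.82 (-1.33 to -0.14), and 7 genes were at least 2-fold lower. Of all features 25.6% were called higher and 37.4% lower, with a median of -0.091. RPF1 had the largest difference at -1.33 ± 0.20 (adjusted p = 3.32e-04), followed by DBP2 at -1.13 ± 0.26 (adjusted p = 0.00425) and REI1 at -1.12 ± 0.18 (adjusted p = 5.34e-04). TIF6 at -0.14 ± 0.14 (adjusted p = 0.415) and NIP7 at -0.37 ± 0.21 (adjusted p = 0.146) were the 2 that did not pass, followed by NOP16 at -0.57 ± 0.16 (adjusted p = 0.0116). With TPM as deposited the all-feature median was -0.34, and 20.7% of calls were higher, against 40.6%. All 53 genes stayed below 0.

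R787G and NULL were close for most genes. In R787G against NULL, 1 gene was called higher and none lower, with a median of 0.24 (-0.26 to 0.75), where 16.9% of all features were called higher and 23.0% lower with a median of -0.051. The called gene was NIP7 at 0.75 ± 0.21 (adjusted p = 0.0183), and it lost the call when either NULL library or R787G replicate 3 was left out. HAS1 at 0.53 ± 0.28 (adjusted p = 0.15) and SDA1 at 0.52 ± 0.20 (adjusted p = 0.0612) came next, and the lowest were RRP14 at -0.26 ± 0.17 (adjusted p = 0.256), RPF1 at -0.15 ± 0.20 (adjusted p = 0.569) and JIP5 at -0.10 ± 0.062 (adjusted p = 0.232). Fitted without the G1242V and WT libraries, whose spread at these genes was larger, 40 genes were called higher and 2 lower. That fit called 4103 of the 6432 features tested, and 44.3% of these calls were higher. All R787G libraries lay above both NULL libraries for 43 of the 53 genes and below them for 5, while 34.7% of all features lay above and 44.1% below without overlap. The direction depends on the scaling: 46 genes were above 0 here, 38 with TPM as deposited, 44 after quantile normalization and 28 when libraries were scaled to an equal sum over coding genes. The all-feature median was -0.18 with deposited TPM and -0.28 with the equal coding sum, and higher calls made up 21.4% and 13.2% of all calls, against 42.4%.

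The 25 other 60S assembly factors on a separate list ranked the groups in the same order by their median. In R787G against WT 21 were higher and 1 lower (median 0.67), in NULL 17 and 1 (median 0.48), and in G1242V 1 and 4 (median -0.13). Among all features tested, 36.5% were called higher and 29.3% lower in R787G, 36.8% and 25.2% in NULL, and 26.6% and 27.3% in G1242V. YVH1, a phosphatase-family factor that releases Mrt4, had 1.11 ± 0.18 in R787G (adjusted p = 3.46e-04), and its R787G libraries held 56.1, 54.4 and 88.4 scaled TPM. YVH1 and SQT1 lie on chromosome IX, and MAK16 on chromosome I, whose medians differed between libraries, and the part of this in their values was not tested. Without these 3, R787G had 19 of 22 higher and 1 lower, NULL 17 and 1, and G1242V 1 and 4. REH1, a paralog of Rei1 that acts in the cytoplasm, was lower in all 3 groups, with 194, 189.8 and 174 scaled TPM in R787G, 158, 170 and 165 in G1242V, 277 and 277 in NULL, and 375, 449 and 360.2 in WT. Its fold change was -1.08 ± 0.086 in R787G, -1.26 ± 0.086 in G1242V and -0.50 ± 0.096 in NULL, while REI1 was called lower in G1242V and did not pass in R787G or NULL. SDO1, which helps release Tif6, was higher in all 3, at 0.71 ± 0.074 in R787G, 0.37 ± 0.074 in G1242V and 0.66 ± 0.083 in NULL. PWP1 and RSA3, both needed for 60S assembly, led the rises in NULL at 0.87 ± 0.17 and 0.86 ± 0.12. In G1242V the other 3 called lower were BUD20, a shuttling factor, at -0.66 ± 0.12 (adjusted p = 0.00112), AFG2, the ATPase that releases Rlp24, at -0.47 ± 0.10 (adjusted p = 0.00302), and RSA1 at -0.31 ± 0.063 (adjusted p = 0.00246).

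The large-subunit ribosomal protein genes, which the same growth signals control, did not follow the assembly factors in G1242V. They were taken as the 82 genes whose symbol starts with RPL and a digit or with RPP0, RPP1 or RPP2. This rule may also take in a gene of another function. Of the 82, 80 were called higher in R787G (median 2.53), 80 in G1242V (median 2.16) and 76 in NULL with 1 lower (median 1.43). Over all features tested, 36.5% were called higher in R787G, 26.6% in G1242V and 36.8% in NULL. In R787G against G1242V, where all 53 assembly factor genes were higher, 17 of the 82 were called higher and 1 lower, with a median of 0.37. All features tested had 26.3% called higher and 19.9% lower there, with a median of 0.050. Their median in G1242V was above that in NULL, whereas that of the assembly factor genes was below it. The difference between the gene sets was not tested, and many ribosomal protein genes are pairs of near-identical copies.

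Of 8 regulators of ribosome biogenesis genes, 2 were higher and 3 lower in R787G, 1 higher and 5 lower in G1242V, and 1 higher and 4 lower in NULL. Of all features, 36.5% were higher and 29.3% lower in R787G, 26.6% and 27.3% in G1242V, and 36.8% and 25.2% in NULL. Whether the 8 genes differ from these shares was not tested. SFP1, an activator of these genes, was lower in all 3 groups, at -0.77 ± 0.072 in R787G, -0.75 ± 0.072 in G1242V and -0.77 ± 0.080 in NULL. STB3, which binds RRPE and represses, was lower as well, at -0.82 ± 0.077 in R787G, -0.71 ± 0.077 in G1242V and -0.64 ± 0.086 in NULL. TOD6, a repressor that binds PAC, had 49.3, 45.3 and 52.9 scaled TPM in R787G, 17.4, 19.9 and 16.1 in G1242V, 53.8 and 49.2 in NULL, and 35.8, 29.4 and 17.8 in WT. It was higher in R787G by 0.86 ± 0.20 (adjusted p = 0.00381) and in NULL by 0.93 ± 0.23 (adjusted p = 0.00522), and lower in G1242V at -0.56 ± 0.20 (adjusted p = 0.0394). DOT6, its paralog, did not pass in any of the 3, at -0.05 ± 0.065 in R787G, 0.12 ± 0.065 in G1242V and 0.11 ± 0.072 in NULL. SCH9, a kinase gene that acts through these repressors, was lower in G1242V at -0.73 ± 0.089 (adjusted p = 1.02e-04) and had -0.19 ± 0.089 in R787G (adjusted p = 0.0865) and -0.01 ± 0.10 in NULL (adjusted p = 0.942). RAS2, a GTPase gene of the glucose response, was higher in G1242V at 0.67 ± 0.067 (adjusted p = 2.91e-05), had -0.16 ± 0.067 in R787G (adjusted p = 0.0567) and was lower in NULL at -0.34 ± 0.075 (adjusted p = 0.00283), and TOR1 was lower in all 3 at -0.46, -0.32 and -0.40 in R787G, G1242V and NULL. RAS1 was higher in R787G at 0.41 ± 0.15 (adjusted p = 0.0392).

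The 53 genes are scattered over 14 chromosomes. The closest pairs were DBP2 and NOP15 on chromosome XIV, 1544 bases apart with 1 gene between them, and SPB4 and LOC1 on chromosome VI, 2175 bases apart with 1 gene between. RRP8 and RRP1 on chromosome IV, NOP16 and NUG1 on V, and IPI1 and RPF1 on VIII had 3 genes between them. Neighbours could differ in size of change. In R787G against WT, RRP1 had 1.65 and RRP8 0.79, and NUG1 had 1.42 and NOP16 0.63. REI1 shares 453 bases with SLM6 on the opposite strand, which held 0.0757 to 0.98 scaled TPM, and the strand setting of the counting is not given in the sources used here.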

How the data were processed

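Transcript levels of the 53 genes came from 11 libraries (3 R787G, 3 G1242V, 2 NULL, 3 WT). The authors deposited TPM for each feature, credited to RSEM by the table's name. The submitters' processing notes list STAR, RSEM, edgeR and bcl2fastq 2.17 and the sacCer3 build. No source used here gives the annotation, the strand setting or the depth. Of 7036 rows, 1 had its fields displaced and was dropped.

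Each library's TPM were scaled by a median-of-ratios factor from 5221 genes that reached 10 TPM throughout. A feature needed 1 TPM in 2 libraries, which left 6432 and all 53 members, and log2(scaled TPM + 1) was tested with limma 3.58.1 (R 4.3.3; eBayes with trend, two-sided, Benjamini-Hochberg adjustment, threshold 0.05) in one fit of all libraries without covariates. Changes of low genes are understated on this scale. P-values measure the spread between cultures, which may be technical. The test was tried on simulated data with 200 changed genes. Figures were drawn with matplotlib 3.10.9 (Python 3.11.15).

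The members and lists were chosen with earlier results of these data known. Any of the 53 genes could be named. Those given by rule were the 5 largest and 3 smallest changes in each comparison against WT and the genes that did not pass in R787G and NULL. To these came the 3 largest and smallest changes elsewhere and the 2 highest levels per role. Of the other genes, the rule took the 2 that changed most and any against their list. Further genes outside this rule, such as DBP7, NOP12 and DOT6, were given beside them. STE2, STE3 and the chromosome medians were added after values were seen. The alternatives tried were unscaled TPM, an equal sum over coding genes, quantile normalization, other pseudocounts (0.1 or 5), filters (none or 10 TPM), eBayes without trend, fits of only the groups compared, a replicate block, and leaving out each library.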

Additional observations from a re-analysis of the deposited data

How the results depend on the processing

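For R787G against WT, NULL against WT, G1242V against NULL and R787G against G1242V, the counts of all features and of the 53 genes called moved by under 1.5 times under every alternative run. Single genes of R787G against G1242V kept their direction and side of the threshold in all 1113 combinations of gene and alternative. In R787G against NULL, unscaled TPM gave a median of 0.10 and 1 gene lower, and an equal sum over coding genes 0.0037 and 2 lower, while quantile normalization gave 0.19, 3 higher and 1 lower. A pseudocount of 5 gave 3 higher, and only the groups compared gave 40 higher, 2 lower and 4103 of all features called, against 2564. In G1242V against NULL the median was -1.07 with unscaled TPM and -1.16 with the equal coding sum. NULL against WT had an all-feature median of 0.31 and 0.35 under these scalings, and 78.3% and 80.7% of its calls were higher, against 59.3%.

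With each library left out, the 53 genes had 50 to 51 called higher in R787G against WT and 34 to 53 in NULL against WT, the lowest without NULL replicate 1. In G1242V against WT 2 to 6 were higher, 6 of them without WT replicate 1, and 2 to 13 lower, 13 of them without WT replicate 3, and the median ran from -0.20 to 0.11. It was above 0 without WT replicate 1 (0.11) and without G1242V replicate 3 (0.073), and NOP16 ran from -0.20 without WT replicate 3 (adjusted p = 0.0203) to 0.14 without WT replicate 2. In R787G against NULL 0 to 6 were higher, 0 to 1 lower, and 1098 to 2879 of all features were called. In G1242V against NULL 45 to 51 were lower. The causes were not tested.

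Whether replicate numbers pair the libraries was not settled. Correlations of deviations between same-numbered libraries ran from -0.159 to 0.274, with 3 of 15 above 0.1. Between differently numbered ones they ran from -0.384 to 0.3, with 5 of 30 above 0.1. WT and G1242V had 0.2 for replicate 1, -0.0372 for replicate 2 and 0.274 for replicate 3. The 2 NULL libraries deviate as mirror images, so their correlations cannot show pairing. A replicate block gave 10 genes higher in R787G against NULL with a median of 0.33.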
